A study of Saccharomyces cerevisiae with 8 samples.

Results

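The zinc regulon of budding yeast, Saccharomyces cerevisiae, is described here through 9 genes: the zinc transporter gene ZRT1 (YGL255W) and 8 others of zinc uptake, storage and use, namely ZRT2 (YLR130C), ZRT3 (YKL175W), ZAP1 (YJL056C), ZPS1 (YOL154W), ZRC1 (YMR243C), ADH4 (YGL256W), IZH1 (YDR492W) and IZH2 (YOL002C). They were matched by systematic name among the 6600 open reading frames of each count file, and all 9 were found. ZRT1 was singled out because its RNA was among the lowest, relative to the other strain, in rapamycin-treated ceg1-AA/xrn1D cells set against rapamycin-treated ceg1-AA cells. The question was whether the other genes of the regulon moved with it. Values of that contrast are therefore given as a description with no test. The same holds for every difference of ZRT1 in which rapamycin-treated libraries are compared. All 9 genes were among the 5879 that passed the filter on low counts.

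Total RNA was sequenced from strains in which Ceg1, the guanylyltransferase of the mRNA capping enzyme, can be taken out of the nucleus. In this method, called anchor-away, the FRB tag on Ceg1 is bridged by rapamycin to FKBP12 on Rpl13a, a protein of the large ribosomal subunit that leaves the nucleus. The ceg1-AA/xrn1D strain carries in addition a disruption of XRN1, the gene of the cytoplasmic exonuclease that degrades decapped RNA from its 5′ end. Its genotype text reads KAN::XRN1 for replicate 1 but KAN::XRN3 for replicate 2. Cells in YPD at 30 °C received 1 µg/mL rapamycin or DMSO for 45 min. The groups were ceg1-AA/xrn1D with rapamycin (2 libraries), ceg1-AA/xrn1D with DMSO (1 library), ceg1-AA with rapamycin (2 libraries) and ceg1-AA with DMSO (2 libraries). Both strains are MATalpha and carry tor1-1, which makes growth resistant to rapamycin, fpr1::NAT, RPL13AxFKB12::TRP and CEG1-FRB::HIS. No strain with an untagged Ceg1 was analysed here, so rapamycin itself and the removal of Ceg1 cannot be told apart. Nothing in the labels says whether replicates came from separate cultures, so the p-values measure only the spread between these libraries, which may be technical.

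Yeast senses zinc through Zap1, a transcription factor that is active when zinc is scarce. Zap1 binds an 11-base palindromic site, the zinc-responsive element, and raises transcription of the genes of zinc uptake and of its own gene. Zrt1 is the high-affinity and Zrt2 the low-affinity zinc importer of the plasma membrane, Zrt3 releases zinc from the vacuole, and Zrc1 moves zinc into it. Zps1 is a cell surface protein related to zinc metalloproteases, ADH4 encodes an alcohol dehydrogenase isoenzyme, and IZH1 and IZH2 encode membrane proteins that influence zinc homeostasis. ZRT2 differs from the others in that Zap1 can also repress it in severe zinc deficiency.

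Zap1 sites were looked for because they are the feature through which these genes are known to be linked. The consensus is ACCTT, then any base, then AAGGT, which is the reverse complement of the first 5 letters, so 1 search covers both strands. It was searched in the 1000 bases upstream of each annotated start codon of the R64 assembly. The best match of each gene is printed below on the coding strand, 5′ to 3′, with its 11 motif positions in capitals and 9 flanking bases on each side; where a gene had a pair of matches with at most 1 mismatch, both are shown.
ZRT1, chrVII:20765-20793, plus strand, no mismatch: acatatttgACCTTGAAGGTcatggaaag
ZRT1, chrVII:20650-20678, plus strand, 1 mismatch: accaaagatACCCTCAAGGTtctcatctg
ZRT2, chrXII:404354-404382, minus strand, 1 mismatch: agggacataACCCTAAAGGTtatatgcga
ZRT2, chrXII:404305-404333, minus strand, 1 mismatch: tttttcacaACCTTTAGGGTacattgccc
ZRT3, chrXI:118629-118657, plus strand, 1 mismatch: gtgacaacaACCTTAAGGGTaatggactt
ZAP1, chrX:333198-333226, minus strand, 1 mismatch: cagtcatctACCCTAAAGGTcatgatgaa
ZPS1, chrXV:34320-34348, plus strand, 1 mismatch: ttataattgACCTTCAGGGTtaggaccct
ZPS1, chrXV:34335-34363, plus strand, 1 mismatch: agggttaggACCCTGAAGGTtttttgtag
ZRC1, chrXIII:756321-756349, minus strand, 1 mismatch: cttcagatgGCCTTGAAGGTgaggaatga
ADH4, chrVII:14632-14660, plus strand, 1 mismatch: cttaaatgaACCTTCACGGTtaagcaacc
IZH1, chrIV:1434498-1434526, plus strand, 1 mismatch: tatcatgcaACCTTTAGGGTccaagccct
IZH2, chrXV:324983-325011, minus strand, 2 mismatches: cggatgagcACTTTCAAAGTaatatggct

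ZRT1 was the only one of the 9 with a perfect match, and 8 of the 9 had a match with at most 1 mismatch. Over 6002 upstream windows, 13 (0.217%) held a perfect match, 197 (3.28%) a match with at most 1 mismatch and 2185 (36.4%) a match with at most 2. The 2-mismatch match of IZH2 is thus of a kind that is common among windows of this length. The distal ZRT2 site and the ZAP1 site have the same 11 bases, as do the proximal ZRT2 site and the IZH1 site. The perfect site of ZRT1 runs from 204 to 194 bases upstream of its start codon, and its second site from 319 to 309. The pair of ZPS1 overlaps in its flanks, at 329 to 319 and 314 to 304 bases upstream. The single sites of ZAP1 (144 to 134), ZRT3 (155 to 145) and ZRC1 (174 to 164) are nearer to the start codon, and that of ADH4 (518 to 508) is farther. A match describes letters of the reference and is no measurement of binding. ZRT1 lies at chrVII:20978-22108 and ADH4 at chrVII:15159-16307, both on the plus strand. No annotated gene of R64 overlaps the coding span of any of the 9 on either strand.

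**Figure D1:**
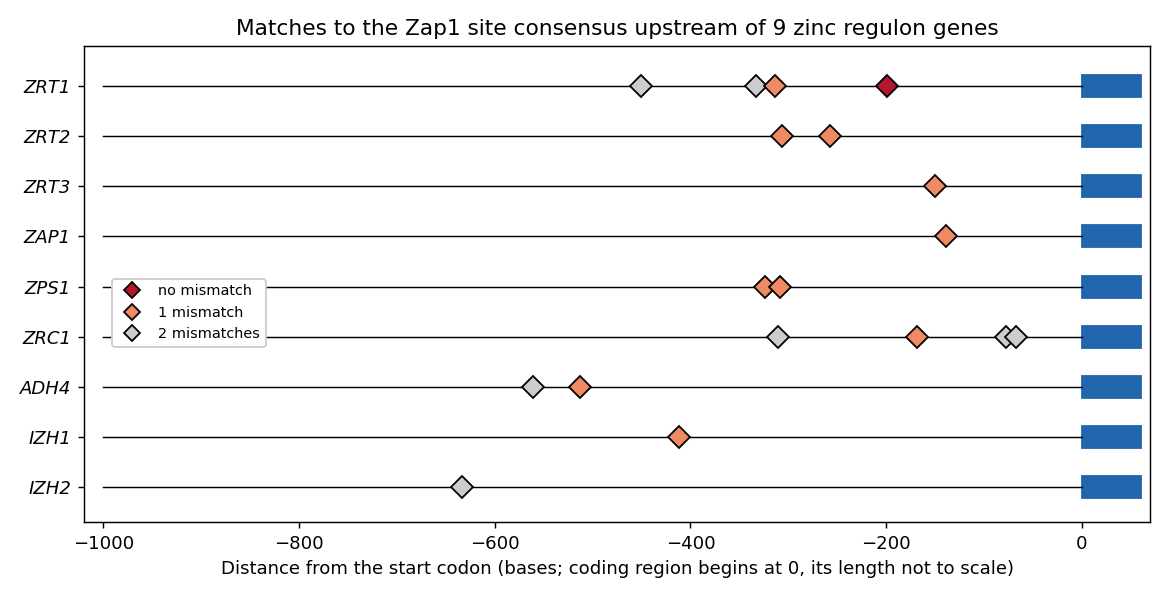
Matches to the Zap1 site consensus upstream of the 9 genes. The horizontal axis is the distance from the start codon in bases, each row is a gene, each diamond is the centre of a match and its colour the number of mismatches; blue boxes mark the start of the coding region. ZRT1 alone has a match with no mismatch, and IZH2 has only a match with 2 mismatches.

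Total counts were 2990340 to 3385761 in the 3 ceg1-AA/xrn1D libraries and 935651 to 1618638 in the 4 ceg1-AA libraries. The labels were checked on the disrupted genes. XRN1 had a count of 0 in every ceg1-AA/xrn1D library, which allows up to 1.003 CPM (counts per 1e6 counts) in the shallowest of them, and 338 to 794 counts in the ceg1-AA libraries. FPR1 had a count of 0 in all 7 libraries, which allows up to 3.21 CPM in the shallowest. For CEG1, the tagged gene, rapamycin against DMSO in ceg1-AA gave a log2 fold change of 0.34 (standard error 0.19). It did not pass the test (edgeR adjusted p = 0.158). Among the ceg1-AA DMSO libraries replicate 2 stood apart in general stress genes: the 7 genes HSP12, DDR2, HSP42, TPS2, PGM2, SSA4 and GPH1 summed to 678 and 825 CPM in the rapamycin-treated ceg1-AA libraries, against 549 CPM in DMSO replicate 1 and 3170 CPM in DMSO replicate 2. In ceg1-AA/xrn1D they summed to 2549 and 1930 CPM with rapamycin, against 1811 CPM with DMSO. Mitochondrially encoded genes took 2.47% to 3.37% of the counts in rapamycin-treated ceg1-AA, against 1.13% to 1.41% in DMSO-treated ceg1-AA. Levels below are CPM scaled by TMM (trimmed mean of M-values), and log2 fold changes are given with their standard error. Intervals, floors and standard errors do not turn reads into independent molecules, since the libraries carry no molecular identifiers. In these bulk samples fewer cells that express a gene and less RNA per cell cannot be told apart.

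ZRT1 was high in 1 group of the 4. It stood at 349 and 504 CPM (366 and 507 counts) in rapamycin-treated ceg1-AA, against 74.6 and 129.7 CPM (91 and 128 counts) in DMSO-treated ceg1-AA. In ceg1-AA/xrn1D it stood at 63.4 and 70.5 CPM with rapamycin, against 84.1 CPM with DMSO. Both rapamycin-treated ceg1-AA libraries lay above the other 5, which spanned 63.4 to 129.7 CPM. The higher of the DMSO-treated ceg1-AA values, 129.7 CPM, came from the library with high stress genes. In ceg1-AA the fitted rapamycin to DMSO ratio of ZRT1 was 4.21 (log2 2.08 ± 0.25), with 1.42 to 2.74 over the 4 pairs of libraries, which placed it 65th from the top of 5879 genes. Without the library with high stress genes the value was 2.51. No test is given for it, because these rapamycin-treated libraries took part in its choice.

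**Figure D2:**
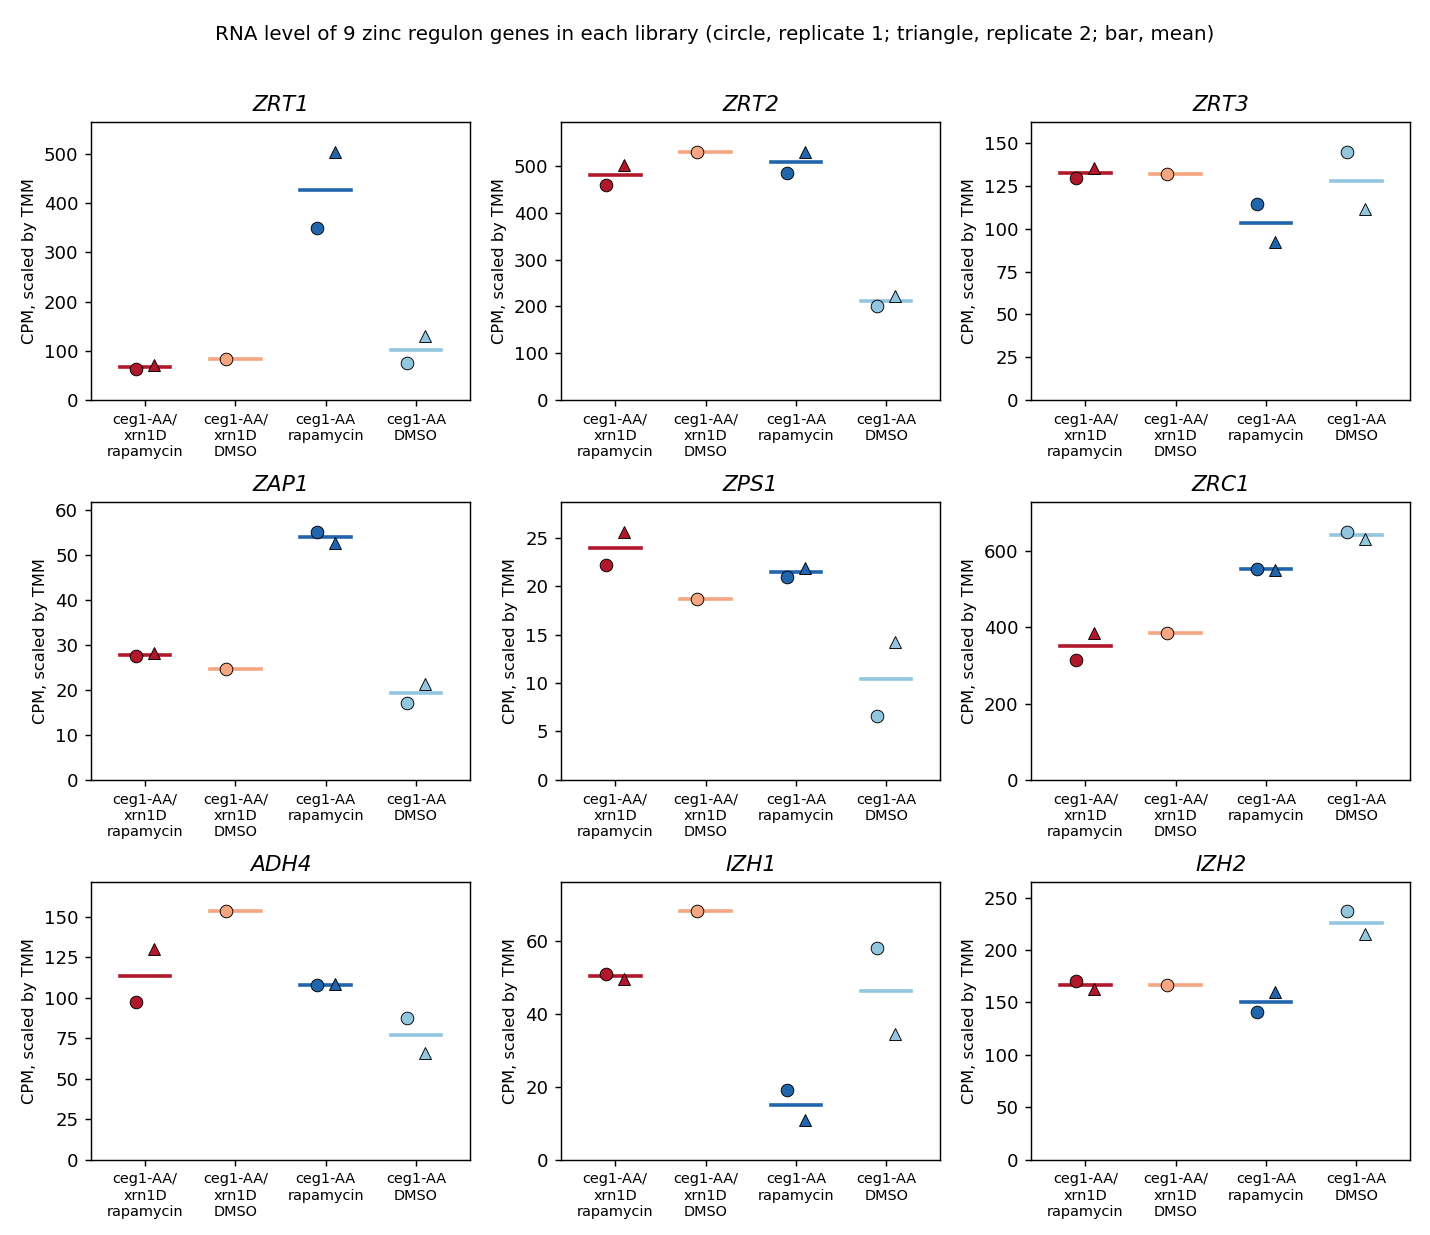
Levels of the 9 genes in the 7 libraries. Each panel is a gene, the vertical axis is CPM scaled by TMM, points are single libraries and bars the group means. ZRT1 is at 349 and 504 CPM in rapamycin-treated ceg1-AA and at 129.7 CPM or less elsewhere, whereas ZRT2 is at 199.98 and 222 CPM in DMSO-treated ceg1-AA and at 460.0 CPM or more elsewhere.

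In ceg1-AA, rapamycin was followed by higher RNA of the second importer gene and of the regulator gene, and by lower RNA of both IZH genes. ZRT2 stood at 486 and 529.7 CPM with rapamycin, against 199.98 and 222 CPM with DMSO. It rose by a log2 fold change of 1.27 ± 0.15 (edgeR adjusted p = 0.000124). ZAP1, the gene of the regulator itself, stood at 55.2 and 52.7 CPM (58 and 53 counts) with rapamycin, against 17.2 and 21.3 CPM (21 counts in each library) with DMSO. It rose by 1.497 ± 0.24 (edgeR adjusted p = 0.000656). For both genes the libraries of a group lay close together. ZPS1 rose by 1.09 ± 0.40 (edgeR adjusted p = 0.0437), on few reads: 21.0 and 21.9 CPM (22 counts in each library) with rapamycin, against 6.56 and 14.2 CPM (8 and 14 counts) with DMSO. Its call was lost under 10 of 15 alternatives, and without DMSO replicate 1 its value was 0.59.

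The genes of vacuolar zinc did not pass the test in ceg1-AA in the main fit, with TMM scaling and all 7 libraries. ZRT3, which exports vacuolar zinc to the cytosol, stood at 114 and 92.4 CPM with rapamycin, against 145 and 111 CPM with DMSO (log2 -0.32 ± 0.18, edgeR adjusted p = 0.167), and the groups overlapped. ZRC1, which loads the vacuole, stood at 553 and 551 CPM with rapamycin, against 651 and 631 CPM with DMSO (-0.22 ± 0.16, edgeR adjusted p = 0.278). ZRT3 passed the threshold, at -0.49, when the library with high stress genes was left out. With scaling to mitochondrially encoded genes in a fit of the 4 ceg1-AA libraries, both were called lower, ZRT3 at -0.98 and ZRC1 at -0.88, whereas total counts gave positive values without a call, 0.20 and 0.30. ADH4, which lies next to ZRT1 among the protein-coding genes of chromosome VII, stood at 108 CPM in both rapamycin-treated libraries, against 87.7 and 65.9 CPM in the DMSO-treated ones. Its log2 difference of 0.48 ± 0.21 did not pass (edgeR adjusted p = 0.0774), but it passed with total counts (0.997), on TPM (1.09) and without DMSO replicate 1 (0.71).

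IZH1 and IZH2 went the other way from ZRT2 and ZAP1. IZH1 stood at 19.0 and 10.9 CPM (20 and 11 counts) with rapamycin, against 58.2 and 34.5 CPM (71 and 34 counts) with DMSO. It fell by 1.64 ± 0.34 on the log2 scale (edgeR adjusted p = 0.00287), and it was past the threshold under all 15 alternatives, at -2.30 to -0.995. IZH2 stood at 141 and 160.0 CPM with rapamycin, against 237 and 215 CPM with DMSO. It fell by 0.59 ± 0.14 (edgeR adjusted p = 0.00726), a call that was lost without rapamycin replicate 1 (-0.50) and when libraries were scaled by total counts (-0.07), while on TPM the value was 0.0044.

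Of the 8 genes other than ZRT1, 3 rose (ZRT2, ZAP1, ZPS1), 2 fell (IZH1, IZH2) and 3 did not pass. The count was 6 of 8 without the library with high stress genes and 3 of 8 without rapamycin replicate 1. Among all genes tested in this comparison 47.1% were past the threshold, 24.3% higher and 22.8% lower. The share of the 8 genes other than ZRT1 was 62.5%, on few genes and a high background. The median log2 fold change was 0.13 over the 8 genes and 0.11 over all genes. The scaling mattered here. The all-gene median shifted by 0.51 with total counts. It shifted by -0.10 in a fit of the 4 ceg1-AA libraries alone and by -0.68 when these 4 were scaled to mitochondrially encoded genes. All genes called were split into 1429 higher and 1338 lower with TMM, 2909 and 649 with total counts, 3225 and 576 on TPM, and 846 and 1248 with DESeq2. In the 4 ceg1-AA libraries alone the split was 1056 and 1418 with TMM and 80 and 1899 with mitochondrial scaling. Under mitochondrial scaling ZRT2 (0.60) and ZAP1 (0.81) kept a positive value but not the call, ADH4 was at -0.16, and ZRT1 was at 1.40.

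**Figure D3:**
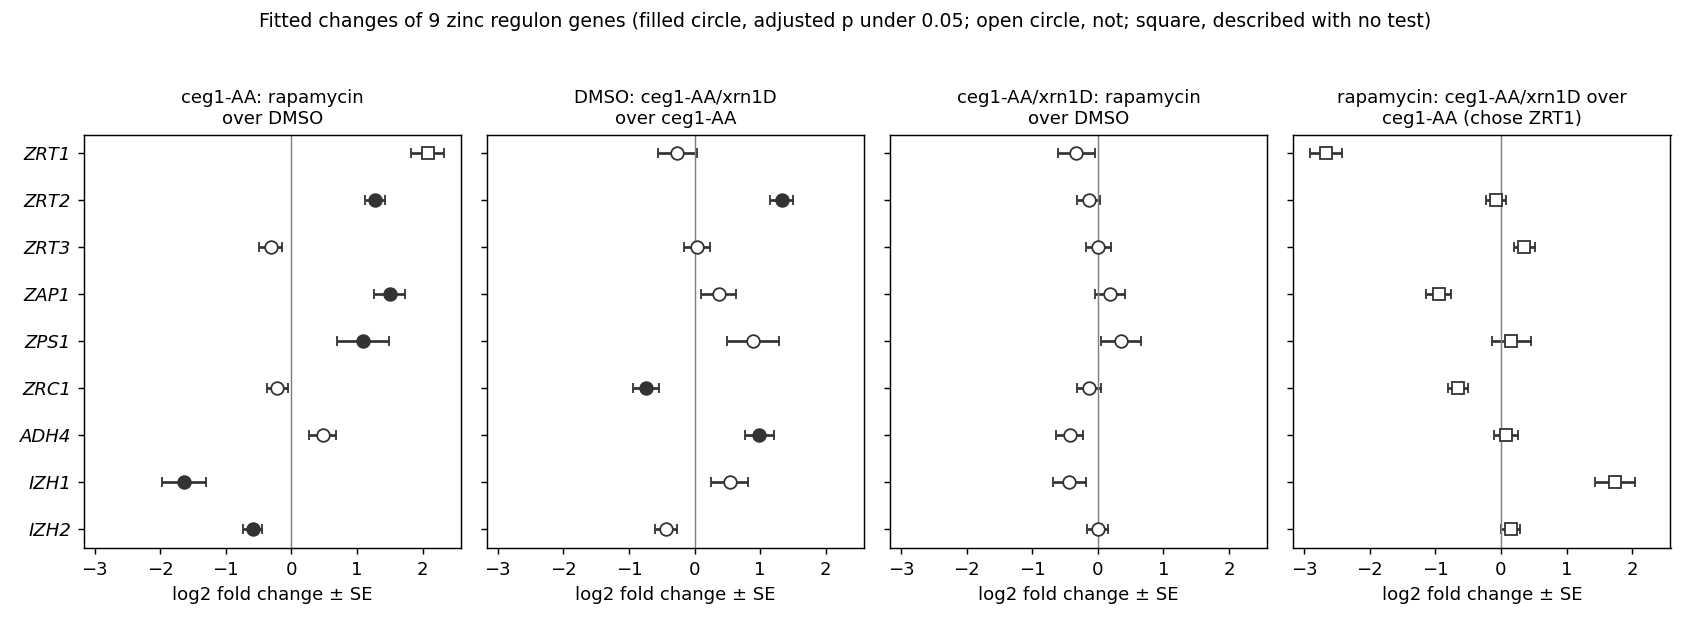
Log2 fold changes of the 9 genes in 4 comparisons, as fitted by edgeR. Filled circles passed the test and open circles did not, and squares were described with no test. ZRT1 for rapamycin against DMSO in ceg1-AA/xrn1D is drawn as an open circle but is also described with no test. Horizontal bars are standard errors, and the vertical line marks no difference. In ceg1-AA, rapamycin against DMSO spans -1.64 for IZH1 to 2.08 for ZRT1, whereas in ceg1-AA/xrn1D the same comparison spans -0.44 to 0.36.

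Without rapamycin, the strain without XRN1 had more ZRT2 RNA and more ADH4 RNA than the strain with it, and less ZRC1 RNA. The groups compared here are not those on which ZRT1 was noticed. The standard errors and p-values still draw on those libraries, through the estimate of the spread shared over all 7. The comparison also rests on 1 ceg1-AA/xrn1D library, which the fit assumes to vary like the others. ZRT2 stood at 530.3 CPM in ceg1-AA/xrn1D, against 199.98 and 222 CPM in ceg1-AA (log2 1.33 ± 0.18, edgeR adjusted p = 0.000463). ADH4 stood at 153 CPM in ceg1-AA/xrn1D, against 87.7 and 65.9 CPM in ceg1-AA (0.99 ± 0.22, edgeR adjusted p = 0.00545). Both were past the threshold under all 12 alternatives. ZRC1 stood at 384 CPM in ceg1-AA/xrn1D, against 651 and 631 CPM in ceg1-AA, and was lower by a log2 difference of -0.74 ± 0.19 (edgeR adjusted p = 0.0124). With total counts ZRC1 was at -0.19 without a call, and on TPM at 0.05.

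ZRT1 gave no stable sign between the DMSO-treated strains. It stood at 84.1 CPM in ceg1-AA/xrn1D, between the 74.6 and 129.7 CPM of the ceg1-AA libraries (log2 -0.26 ± 0.30, edgeR adjusted p = 0.515). Without ceg1-AA replicate 1 the value was -0.63 and past the threshold, and without replicate 2, the library with high stress genes, it was 0.17. With total counts it was 0.28. The ceg1-AA/xrn1D DMSO library was itself at 1811 CPM in the sum of the 7 stress genes. The ceg1-AA DMSO libraries were at 549 CPM in replicate 1 and 3170 CPM in replicate 2. The other 5 of the 9 zinc genes did not pass. IZH2 was at -0.44 ± 0.17 (edgeR adjusted p = 0.0591), IZH1 at 0.53 ± 0.28 (0.153), ZPS1 at 0.89 ± 0.40 (0.101), ZAP1 at 0.36 ± 0.27 (0.312) and ZRT3 at 0.03 ± 0.19 (0.910), with adjusted p-values of the same edgeR fit in parentheses. The count of 3 of 9 genes past the threshold, 2 higher and 1 lower, stands beside 39.2% of all genes, 19.2% higher and 20% lower. Without either ceg1-AA DMSO library in turn the count was 5, and with total counts or on TPM it was 6. With total counts and on TPM the genes that gained a call were ZAP1 (0.91 and 1.26), ZPS1 (1.43 and 1.49), IZH1 (1.08 and 1.28) and ZRT3 (0.58 and 0.87). Without ceg1-AA replicate 1 IZH1 gained one (0.98), and without replicate 2 ZPS1 (1.498) and IZH2 (-0.51) did. IZH2 also passed with RLE size factors (-0.498), but was at 0.11 with total counts. The all-gene median shifted by 0.54 with total counts in this comparison. All genes called were split into 1128 higher and 1176 lower with TMM, 2681 and 436 with total counts, 3271 and 277 on TPM, and 584 and 1034 with DESeq2.

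In ceg1-AA/xrn1D, none of the 8 genes other than ZRT1 passed the test between rapamycin and DMSO. ZRT1 is described with no test here too, because the rapamycin-treated libraries of this strain also took part in its choice. The levels with rapamycin were 63.4 and 70.5 CPM for ZRT1 (DMSO 84.1), 460.0 and 503 CPM for ZRT2 (DMSO 530.3), and 27.5 and 28.3 CPM for ZAP1 (DMSO 24.6). Both rapamycin-treated values of ZRT1 and of ZRT2 were below the single DMSO value, and both of ZAP1 were above it. The log2 differences were -0.33 ± 0.28 for ZRT1, -0.14 ± 0.17 for ZRT2 and 0.18 ± 0.23 for ZAP1. ZPS1 was at 22.2 and 25.6 CPM with rapamycin, against 18.7 CPM with DMSO (0.36 ± 0.31), and ADH4 at 97.04 and 129.98 CPM, against 153 CPM (-0.43 ± 0.20). IZH1 was at 51.0 and 49.7 CPM with rapamycin, against 68.1 CPM with DMSO (-0.44 ± 0.25). ZRT3 was at 0.01, IZH2 at -0.0041 and ZRC1 at -0.13. With edgeR 0 of the 8 genes other than ZRT1 were past the adjusted threshold and 0 had an unadjusted p under 0.05, and DESeq2 called 0. Among all 5879 genes 4 (0.068%) passed, 0.034% in each direction, and 875 had an unadjusted p under 0.05. The count over all genes rose sharply when either ceg1-AA DMSO library was left out, as given in the section on the processing.

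The rapamycin responses of the strains were also set against each other directly, as the log2 change in ceg1-AA/xrn1D minus that in ceg1-AA. This quantity holds the rapamycin-treated libraries of both strains, on which ZRT1 was noticed, so it is given without a test. It was -2.40 ± 0.37 for ZRT1, -1.41 ± 0.23 for ZRT2 and -1.32 ± 0.33 for ZAP1, and -0.73 ± 0.51 for ZPS1 and -0.91 ± 0.29 for ADH4. It was positive for IZH1 (1.20 ± 0.43), IZH2 (0.58 ± 0.22), ZRT3 (0.33 ± 0.26) and ZRC1 (0.08 ± 0.24). Of the 8 genes other than ZRT1, 3 (ZRT2, ZAP1 and ADH4) lay past the threshold of the fit, all negative, beside 21.5% of all genes, 11.9% higher and 9.66% lower, and nothing is read from this count. The calls over all genes were 697 higher and 568 lower with TMM, 316 and 1776 with total counts, 207 and 1572 on TPM, and 622 and 223 with DESeq2.

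The values behind this quantity show that ZRT1 and ZRT2 came to it from different starting levels. ZRT1 was low in both DMSO groups and in rapamycin-treated ceg1-AA/xrn1D. ZRT2 was low in DMSO-treated ceg1-AA only, and its levels in the other 5 libraries, 460.0 to 530.3 CPM, lay close together. ZAP1 was intermediate in ceg1-AA/xrn1D: 24.6 to 28.3 CPM there, against 52.7 and 55.2 CPM in rapamycin-treated and 17.2 and 21.3 CPM in DMSO-treated ceg1-AA. IZH1 was low in rapamycin-treated ceg1-AA, at 10.9 and 19.0 CPM, and spanned 34.5 to 68.1 CPM in the other libraries.

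In the contrast on which ZRT1 was noticed, ceg1-AA/xrn1D with rapamycin against ceg1-AA with rapamycin, its log2 difference was -2.67 ± 0.24, the 31st lowest of 5879 genes. Because ZRT1 was picked for its low value in this contrast, nothing is read from its distance to the other genes, whose values follow. ZAP1 stood at 27.5 and 28.3 CPM in ceg1-AA/xrn1D, against 55.2 and 52.7 CPM in ceg1-AA (-0.95 ± 0.20), and ZRC1 at 314 and 386 CPM, against 553 and 551 CPM (-0.66 ± 0.16). ZRT2, at 460.0 and 503 CPM in ceg1-AA/xrn1D against 486 and 529.7 CPM in ceg1-AA, was at -0.08 ± 0.15, with groups that overlapped. ADH4 (0.07 ± 0.18), IZH2 (0.15 ± 0.14), ZPS1 (0.16 ± 0.30) and ZRT3 (0.36 ± 0.17) were near 0 or above it. IZH1 had the opposite sign, at 51.0 and 49.7 CPM in ceg1-AA/xrn1D against 19.0 and 10.9 CPM in ceg1-AA (1.74 ± 0.31). Of the 8 genes other than ZRT1, 3 lay past the threshold of the fit (IZH1 higher, ZAP1 and ZRC1 lower), beside 43.7% of all genes, 21.2% higher and 22.5% lower, and nothing is read from this count. On TPM the split over all genes was 1755 higher and 679 lower, against 1246 and 1321 with TMM. Most of these comparisons share libraries with another: both ceg1-AA DMSO libraries enter the rapamycin comparison in ceg1-AA and the strain comparison with DMSO. Their values are therefore set side by side, and no likeness between comparisons is drawn from them.

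Levels of different genes can be compared only per length, on the deposited TPM values. In rapamycin-treated ceg1-AA the mean TPM was 435 ± 5.13 for ZRC1, 418 ± 21.0 for ZRT2 and 391 ± 94.2 for ZRT1 (SD, n = 2 each), levels that do not differ beyond the spread of ZRT1. In DMSO-treated ceg1-AA it was 331 ± 7.76 for ZRC1, 114 ± 8.10 for ZRT2 and 61.9 ± 23.4 for ZRT1. ZRT1 thus lay at the level of the 2 more abundant transporter genes in the first group and below both in the second. In rapamycin-treated ceg1-AA/xrn1D the order was ZRT2 (474 ± 6.36), ZRC1 (331 ± 32.6) and ZRT1 (72.8 ± 1.60). The single ceg1-AA/xrn1D DMSO library had 491 TPM of ZRT2, 343 of ZRC1 and 85.6 of ZRT1. ZAP1 was the lowest or the second lowest of the 9 genes in every group, at 23.5 ± 0.61 TPM in rapamycin-treated and 5.26 ± 0.87 TPM in DMSO-treated ceg1-AA (SD, n = 2 each).

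Further genes of zinc biology were taken from a list of 31: 7 of zinc and metal transport or homeostasis, 21 others reported as activated by Zap1, and 3 reported as lowered through Zap1 when zinc is scarce. All 31 were tested. In ceg1-AA with rapamycin against DMSO, where 24.3% of all genes were higher and 22.8% lower, the transport group had 1 rise, ZRG8 (0.94 ± 0.28, edgeR adjusted p = 0.0186), and 1 fall, IZH4 (-1.18 ± 0.44, edgeR adjusted p = 0.0460). The call of ZRG8 was lost with DESeq2 (0.88), under mitochondrial scaling (0.28) and without either rapamycin-treated library. IZH4, a paralogue of IZH1, lost its call under 10 of 15 alternatives, with -0.50 when the library with high stress genes was left out. Of the 21 Zap1-activated genes 2 rose, RTC4 (1.11 ± 0.21, edgeR adjusted p = 0.00185) and PST1 (0.55 ± 0.15, edgeR adjusted p = 0.0121), and 7 fell, shares of 9.52% and 33.3%. The largest falls were those of TSA1, a peroxiredoxin gene (-1.55 ± 0.18), PRC1, the gene of vacuolar carboxypeptidase Y (-1.31 ± 0.18), and MCD4, of GPI anchor synthesis (-1.09 ± 0.20), with edgeR adjusted p-values of 9.87e-05, 0.000268 and 0.00145. Under mitochondrial scaling RTC4 was at 0.48 without a call and PST1 at -0.11. PST1 also lost its call without rapamycin replicate 1 (0.54) or 2 (0.56), and on TPM MCD4 was at -0.41 without a call. The median of these 21 genes was -0.03, against 0.11 for all genes.

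The 3 genes that low zinc is reported to lower through Zap1 all fell, where 22.8% of all genes did. ADH1, the main alcohol dehydrogenase of fermentation, fell by 2.08 ± 0.20 on the log2 scale and ADH3, the mitochondrial isoenzyme, by 2.31 ± 0.20 (edgeR adjusted p = 4.43e-05 and 2.93e-05). ADH1 stood at 3123 and 3302 CPM with rapamycin, against 12787 and 14442 CPM with DMSO. HNT1 fell by 0.42 ± 0.16 (edgeR adjusted p = 0.0438), a call lost when any rapamycin-treated library or the library with high stress genes was left out, and its sign turned with total counts (0.09) and on TPM (0.13). Reads of ADH1 can be shared with its near-identical relative ADH2, so its count is less certain.

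Between the DMSO-treated strains, ceg1-AA/xrn1D against ceg1-AA, IZH3 (1.39 ± 0.18) and ZRG17 (0.98 ± 0.27) were higher among the 7 transport genes, with edgeR adjusted p-values of 0.000485 and 0.0154. The call of ZRG17 was lost without ceg1-AA DMSO replicate 1 (0.72) and with DESeq2 (0.91). Of the 21 activated genes 3 were higher and 3 lower, 14.3% each way, beside 19.2% higher and 20% lower of all genes. The higher ones were ICY2 (2.75 ± 0.44), the catalase gene CTT1 (2.08 ± 0.32) and PST1 (1.01 ± 0.17), and the lower ones were led by TSA1 (-1.25 ± 0.22), with edgeR adjusted p-values of 0.00108, 0.000896, 0.00155 and 0.00191. ICY2 rested on 6 and 2 counts in ceg1-AA, against 83 in ceg1-AA/xrn1D. CTT1 is also a general stress gene, and the part of stress in these values was not tested. ADH1 (-1.81 ± 0.26) and ADH3 (-0.83 ± 0.22) were lower (edgeR adjusted p = 0.000686 and 0.0147), but ADH3 was at -0.28 without a call with total counts. In ceg1-AA/xrn1D, none of the 31 passed between rapamycin and DMSO with edgeR. DESeq2 called 1, and 4 passed in edgeR without either ceg1-AA DMSO library.

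**Figure D4:**
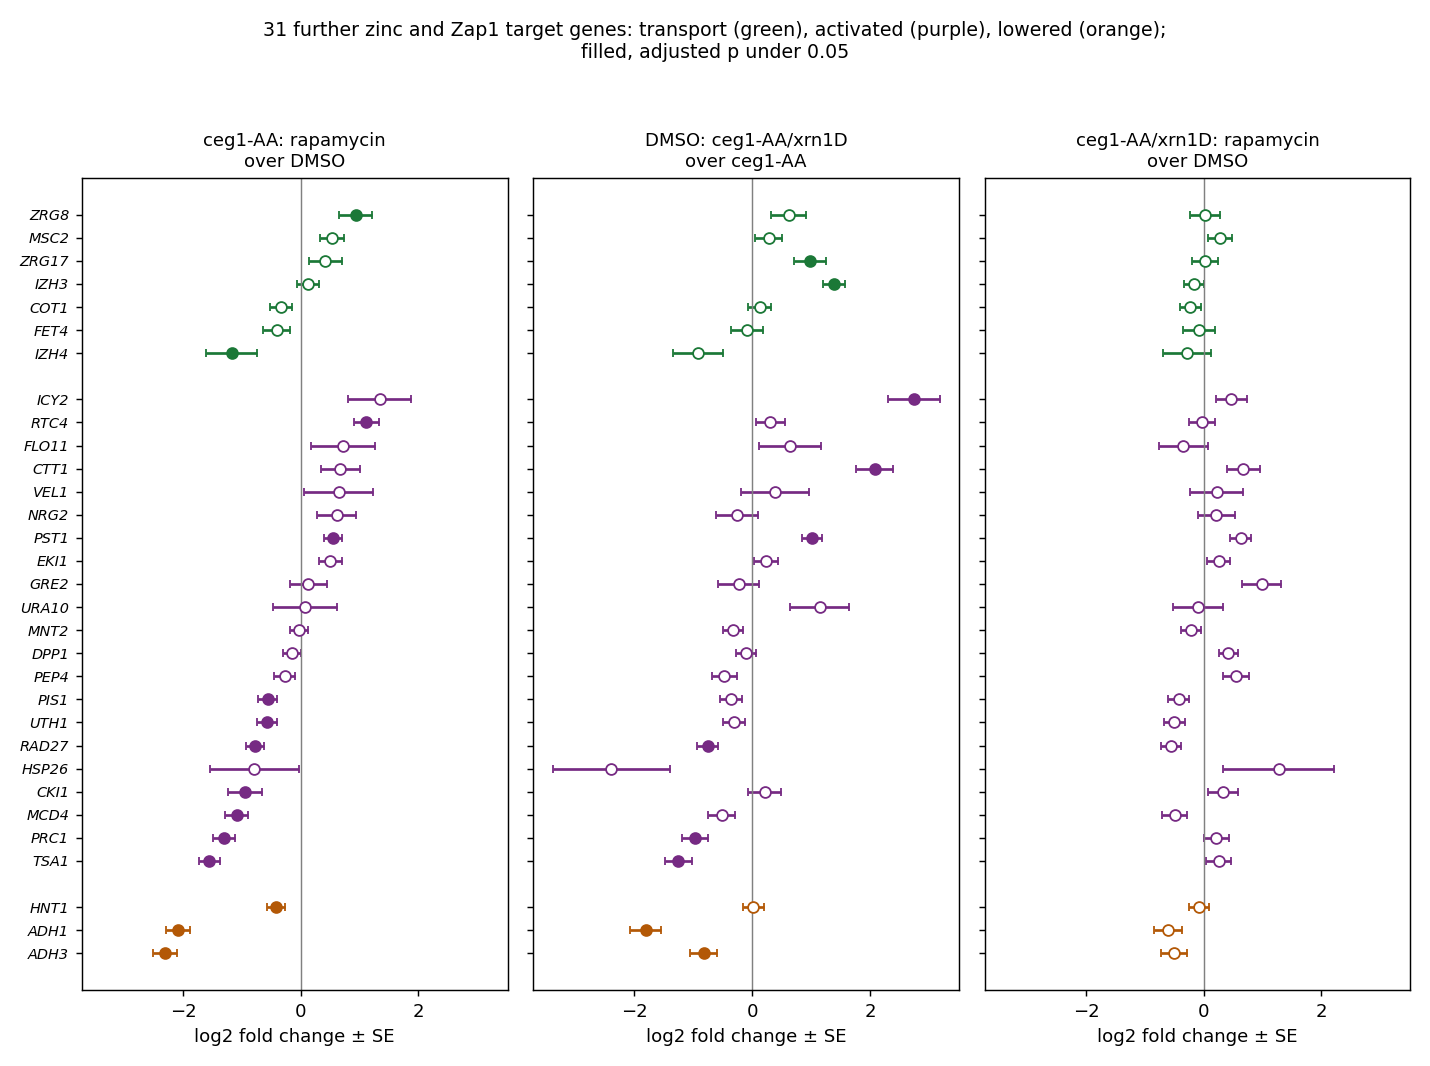
Log2 fold changes of the 31 further genes of zinc biology, grouped by reported role, for rapamycin against DMSO in ceg1-AA, for ceg1-AA/xrn1D against ceg1-AA with DMSO, and for rapamycin against DMSO in ceg1-AA/xrn1D. Points are values fitted by edgeR, filled where past the threshold, and bars their standard errors. In the first comparison ADH3 (-2.31) and ADH1 (-2.08) lie farthest to the left, and values of the Zap1-activated genes lie on both sides of 0.

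Other genes with a match to the Zap1 site were called about as often as all genes. Of 189 genes with a match of at most 1 mismatch, the 9 genes left out, 178 were tested. In ceg1-AA with rapamycin against DMSO 40 of them were higher (22.5%) and 49 lower (27.5%), beside 24.3% and 22.8% of all genes, with a median log2 fold change of 0.12. Of the 12 genes other than ZRT1 with a perfect match, NNF2 (0.71 ± 0.15) and RTC4 (1.11 ± 0.21) were higher and MCD4 (-1.09 ± 0.20), ERO1 (-1.02 ± 0.15) and PAN1 (-0.87 ± 0.19) lower. Some of these windows are shared by divergent neighbours, such as that of RTC4 and TEX1. Of the 31 further genes, 6 had a match of at most 1 mismatch and 3 of these a perfect one, ZRG17, MCD4 and RTC4.

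Of the genes around ZRT1 on chromosome VII, 1 rose and 1 fell in ceg1-AA with rapamycin against DMSO. Among all genes 24.3% were higher and 22.8% lower there, and nothing is read from this count. Of the 4 annotated genes on each side, the noncoding SUT532 is not among the open reading frames of the files. Of the other 7, the hexokinase gene HXK2 fell by 1.35 ± 0.22 on the log2 scale (edgeR adjusted p = 0.000684) and the meiotic helicase gene HFM1 rose by 0.79 ± 0.15 (edgeR adjusted p = 0.00175). FZF1, whose coding region begins 3′ of ZRT1, was at 0.62 ± 0.26, VEL1 at 0.64, MNT2 at -0.03 and RTG2 at -0.07, and none of these passed.

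Genes were also ranked by how closely their levels ran with those of ZRT1 over all 7 libraries. Likeness was the root mean square distance between log2 CPM values, each gene centred on its mean, over 4897 genes with a mean count of at least 50. The 5 nearest were GLE1 (0.323), INO4 (0.405), RRP14 (0.420), IMD2 (0.421) and RLM1 (0.458). GLE1, for example, averaged 328 CPM in rapamycin-treated ceg1-AA and 92.9 CPM in DMSO-treated ceg1-AA, and 59.2 and 58.1 CPM in ceg1-AA/xrn1D with rapamycin and with DMSO. Of the regulon ZAP1 came nearest, at a distance of 0.699 and rank 103. ZRC1 was at rank 1091, ZRT2 at 1846, ADH4 at 2498, IZH2 at 2926 and ZRT3 at 3288. IZH1, at rank 4823 of 4897, was among the genes least like ZRT1. ZPS1, with a mean count of 43.6, fell below the minimum and was not ranked. The distances describe 7 libraries of 4 groups and carry no test. They hold the rapamycin-treated libraries on which ZRT1 was noticed, and few regulon genes are ranked among 4897. That the 5 nearest are not of the regulon is therefore not read as a result.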

How the data were processed

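The members and gene lists were chosen with earlier results of these data known. Per open reading frame the deposited files give a count and TPM, with a length and bias factor. Counts, as the authors deposited them, were not normalized, and the deposited TPM values equal counts divided by length and bias factor and rescaled, within 0.00028%. Per the submitters' processing notes FastQC 0.11.5, HISAT2 2.1.1, SAMtools 1.15.1 and DESeq2 were used with R64 (sacCer3); the counting program and its use of strand are not given in the sources used here, so antisense, overlapping and near-identical genes have uncertain counts. Symbols, start codons and sequences came from NCBI RefSeq's R64 assembly, in which 5917 of 6600 identifiers were found.

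Groups came from the sample titles. Not analysed here was replicate 2 of ceg1-AA/xrn1D with DMSO. The genotype text of ceg1-AA/xrn1D replicate 2, which includes an analysed rapamycin-treated library, reads KAN::XRN3 where that of replicate 1 reads KAN::XRN1. XRN1 had a count of 0 in every analysed library of the strain and was taken as the disrupted gene. Counts were fitted in edgeR 4.0.16 (R 4.3.3) by the quasi-likelihood F test after filterByExpr and TMM, with 1 coefficient per group over 7 libraries and Benjamini-Hochberg adjustment over 5879 genes; the threshold was an adjusted p of 0.05, and the pairwise range over libraries used log2 CPM with a prior count of 2. A test had been laid down for the difference of the rapamycin responses, but because that contrast holds the libraries on which ZRT1 was noticed, it is described without p. The fit was also run on simulated counts in which few genes changed, unlike these data, so no support for the values here is drawn from it. The text names all members, checks of the labels, the largest called changes per list, the neighbours of ZRT1 and the 5 genes most like it; PST1, stress genes and genes with a perfect site outside the lists were named after their values were seen. Alternatives were other scalings, no filter, DESeq2 1.42.0, limma 3.58.1 on log2(TPM + 1), a replicate block, the ceg1-AA libraries alone, and leaving out each library. No technical batch is given in the labels.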

Additional observations from a re-analysis of the deposited data

Results flagged for a closer look

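The response to rapamycin was set between the strains as the log2 change in ceg1-AA/xrn1D minus that in ceg1-AA. The 10 genes with the values below were picked out of the 9 members and 31 further genes by the threshold of the edgeR fit. The difference was -2.40 for ZRT1, -1.41 for ZRT2, -1.32 for ZAP1, -0.91 for ADH4 and -1.14 for RTC4. It was 1.28 for CKI1, 1.81 for TSA1, 1.52 for PRC1, 1.47 for ADH1 and 1.80 for ADH3. All 10 rest on the single ceg1-AA/xrn1D DMSO library and on the rapamycin-treated libraries in which ZRT1 was noticed, so the difference is given as a description with no test. The values of ADH4 and CKI1 lay short of the threshold under 7 of 12 alternatives each. That of ZAP1 did so under 5, RTC4 under 3 and ADH1 under 2. Those of ZRT2, TSA1, PRC1 and ADH3 stayed past it. For ZRT1 no such count is given, because it was chosen on these libraries. Among all genes 21.5% were past the threshold.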

How the results depend on the processing

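The log2 value of ZRT1 for rapamycin against DMSO in ceg1-AA was 1.40 to 2.67 over 15 alternatives, and IZH1 was past the threshold in all 15. Depth limits ZPS1, with 8 to 22 counts per ceg1-AA library, and IZH1. Signs turned mainly where libraries were scaled by total counts or read as TPM. The causes of changes were not tested.

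For rapamycin against DMSO in ceg1-AA, total counts gave 0.20 for ZRT3, 0.30 for ZRC1 and 0.090 for HNT1; TPM gave 0.31, 0.40 and 0.13 for these, 0.0044 for IZH2, 0.0091 for PIS1 and 0.026 for UTH1; mitochondrial scaling gave -0.16 for ADH4 and -0.11 for PST1. For ceg1-AA/xrn1D against ceg1-AA with DMSO, ZRT1 was 0.28 with total counts, 0.51 on TPM and -0.63 to 0.17 with a library left out. ZRT3 was -0.029 with RLE size factors, -0.027 with DESeq2, -0.047 with the replicate block and -0.14 to 0.24 with a library left out. ZRC1 was 0.052 on TPM, and IZH2 was 0.11 with total counts and 0.27 on TPM. TPM called 3548 genes, and members called were 6 with total counts, 6 on TPM and 3 to 5 with a library left out. For rapamycin against DMSO in ceg1-AA/xrn1D, 12 genes were called with no filter, 34 with DESeq2, 0 on TPM and 0 with the replicate block, and 0 to 368 with a library left out; without ceg1-AA DMSO replicate 1 they were 368 and without replicate 2 they were 362. There ZRT3 was -0.0053 with RLE, -0.0054 with DESeq2 and -0.022 to 0.040 with a library left out, ZRC1 was -0.29 to 0.0081, and IZH2 was 0.059 with total counts, 0.0039 with the replicate block, 0.10 on TPM and -0.035 to 0.027 with a library left out.

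For the difference of the responses, total counts called 2092 genes, and leaving out a library 549 to 1576; members called were 2 with DESeq2 and 2 to 5 with a library left out. Over all genes DESeq2 called 845 of 5879. The member counts take in ZRT1, which was chosen on these libraries. The difference is described with no test, so nothing is read from any of these counts. ZRT3 was -0.13 with total counts and -0.23 on TPM, and ZRC1 was -0.38, -0.45 and -0.079 to 0.22 with a library left out. For ceg1-AA/xrn1D against ceg1-AA with rapamycin, 1597 to 2974 genes were called with a library left out, the lowest with ceg1-AA rapamycin replicate 2 removed and 1707 with ceg1-AA/xrn1D rapamycin replicate 1 removed. ZRT2 was 0.015 with total counts and 0.18 on TPM, and ADH4 was -0.16 to 0.27 with a library left out.

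Replicate numbers were not shown to pair libraries: differences between replicates correlated at 0.131, -0.027 and -0.149 between groups over 5879 genes. With the replicate block, 2631 of the 5879 genes were called for rapamycin against DMSO in ceg1-AA and 1964 for the strains with DMSO. The counts were 925 for the difference of the responses and 2433 for the strains with rapamycin. In the first comparison 5 of the 8 genes other than ZRT1 were called, and in the second 3 of the 9 members. Over all alternatives, 965 values of single genes and 160 counts kept their direction and side of the threshold or stayed within 1.5 times. Against these, 105 values of single genes lost a call, 23 gained one and 37 turned sign, and 32 counts moved further. Not all of them are named above. The totals include ZRT1 where it is described with no test, and nothing is read from them for it.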
